A study of Rattus norvegicus with 2 samples.

Results

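Cluster 9 was the group of 124 cells, among 24220 cell barcodes of Percoll-enriched neonatal rat cardiac cells, that carried the number 9 in the deposited clustering and were left unnamed ("Uncommented") in the deposited cell annotation. Members were found by matching that annotation to the count matrix by barcode. The saline control library held 66 of them among 11531 cells, which was 0.572% of cells (exact binomial 95% interval 0.443 to 0.728). The LPS library held 58 among 12689 cells, 0.457% (0.347 to 0.591). The study asked how intrinsic cardiac adrenergic (ICA) cells, a heart-resident cell type that makes catecholamines, respond to lipopolysaccharide. Hearts of Sprague-Dawley rats 1-3 days old, with the sexes pooled, were digested with trypsin, and a Percoll gradient was used to enrich ICA cells before treatment in culture. Control cells received saline and LPS cells received 1 µg/ml LPS, each for 2 h, and no gene was deleted or overexpressed in either group. Each condition is 1 library with 10X Genomics 3′ v2 chemistry (24 rats are stated for these data), so cells are the only repeated unit and no test between conditions or clusters was possible. All intervals cover counting error only, and counts of genes past a 2-fold change are descriptions.

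The mitochondrial genome encodes subunits of the respiratory chain and of ATP synthase, and heart muscle cells are rich in its transcripts. Myh6 encodes the α cardiac myosin heavy chain and Mybpc3 the cardiac myosin-binding protein C, both parts of the thick filament of the sarcomere. In droplet libraries a high share of mitochondrial transcripts together with little RNA of nuclear genes is also a widely used mark of stressed or broken cells. Cardiac fibroblasts make the collagens and proteoglycans of the heart's matrix, and LPS acts through TLR4 and NF-κB to switch on chemokine and cytokine genes in many cell types.

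The working description of cluster 9 as mitochondria-rich, Myh6-expressing cells held for a minority of its cells. All 124 cells had UMIs of Mt-nd4 and Mt-co1, but 27 of 66 control and 24 of 58 LPS cells had a UMI (a counted transcript molecule) of Myh6, and 32 and 25 cells had one of Mybpc3. All 4 of these genes were seen together in 25 control and 20 LPS cells. Col1a1, the α1 chain of type I collagen, was seen in 66 of 66 control and 52 of 58 LPS cells, and Dcn, the matrix proteoglycan decorin, in 63 and 50. These shares do not separate cell types, since Col1a1 was also seen, at 1000 UMIs per cell, in 67.5% and 51.6% of cluster 3 cells, against 80.3% and 81.0% of cluster 9 cells. Since Myh6 was seen in a minority of its cells, the group is called cluster 9 here, and its cells were divided by a per-cell score. The score compared, in each cell, the summed UMIs of 18 cardiac filament genes with those of 12 fibroblast marker genes.

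By this score 21 control cells (31.8%, 20.9 to 44.4) and 18 LPS cells (31.0%, 19.5 to 44.5) had more filament than fibroblast UMIs. They are called sarcomere-majority cells here, and the other 45 and 40 fibroblast-majority cells. The division was chosen after the per-cell sums had been seen, and it marks ranges of a score and not cell types, with 7 control and 2 LPS cells within 2-fold of the line. For reference, 92.1% of control and 91.9% of LPS cells of cluster 3, the deposited cluster with the filament genes, lay on the filament side. The study describes cluster 3 as holding both ICA cells and cardiomyocytes, so it is a mixed reference, also for the catecholamine genes. In cluster 0, the largest cluster and rich in fibroblast genes, 0 of 6600 control cells and 0.0142% of LPS cells did. The median sarcomere-majority cell carried 50 filament and 14 fibroblast UMIs in control and 40 and 7 in LPS. The median fibroblast-majority cell carried 10 and 201 in control and 7.5 and 135.5 in LPS.

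**Figure D1:**
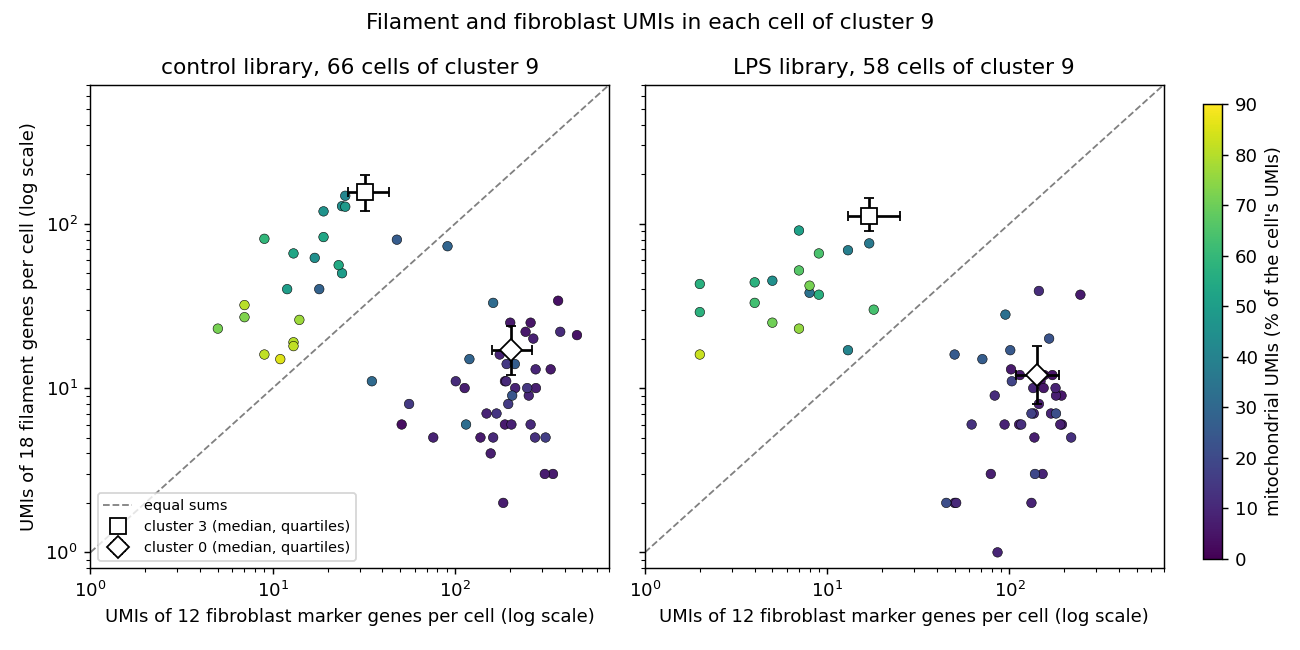
Summed UMIs of 18 cardiac filament genes (y axis) against those of 12 fibroblast marker genes (x axis) in each cluster 9 cell, on log axes, with control and LPS cells in separate panels, colour giving the mitochondrial percent of the cell's UMIs the dashed line equal sums, and the open symbols the medians and quartiles of clusters 3 and 0. The 21 control and 18 LPS cells above the line lie at 25.8 to 85.5% and 33.9 to 82.6% mitochondrial UMIs. Those below lie at up to 32.0% and 32.7%. The place of a cell above or below the line follows from the division itself, which used no mitochondrial UMIs.

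Depth differed between the classes, so shares of cells with Myh6 were also taken after each cell was thinned to 1000 UMIs. Thinning matches depth and does not remove RNA that was free in the droplets, the part of which was not tested. The share was then 42.9% in control and 55.6% in LPS sarcomere-majority cells, against 95.2% and 94.4% without thinning. In cluster 3 it was 51.3% and 53.0% (95.2% and 91.7% without thinning). The thinning matched all UMIs and not nuclear-encoded UMIs, of which sarcomere-majority cells held a smaller share, so these values do not compare the Myh6 level of the 2 classes. In fibroblast-majority cells it was 4.44% (0.54 to 15.1) and 2.5% (0.06 to 13.2), which are 2 and 1 cells (15.6% and 17.5% without thinning). In cluster 0, which should lack the gene, it was 1.39% and 1.19% (17.98% and 11.5% without thinning). Cluster 0 cells were deeper, at medians of 12968 and 9822 UMIs, than fibroblast-majority cells with 6054 and 4867 and sarcomere-majority cells with 4895 and 3456. At matched depth the intervals of the fibroblast-majority cells covered the shares of cluster 0. Their summed Myh6 level was nevertheless 5.40 (3.48 to 8.01) and 6.07 (3.30 to 10.2) times that of cluster 0, on 25 and 14 UMIs. In control 1 cell held 12 of the 25, and without the cell of each library richest in thick filament UMIs the Myh6 ratios were 2.86 (1.52 to 4.91) and 4.09 (1.87 to 7.81).

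The mitochondrial share separated cells within cluster 9 more than it set cluster 9 apart. The median mitochondrial percent was 14.02 in control and 12.6 in LPS cells, below the 17.9 and 17.3 of cluster 3 and above the 3.37 and 2.94 of cluster 0. The range was 3.36 to 85.5% in control and 4.13 to 82.6% in LPS. In 38 of 66 control and 30 of 58 LPS cells the share was under cluster 3's median. Sarcomere-majority cells had medians of 53.3% (range 25.8 to 85.5) and 57.4% (33.9 to 82.6), and fibroblast-majority cells of 9.03% (3.36 to 32.0) and 9.12% (4.13 to 32.7). The highest cluster 3 cell was at 37.7% in control and 38.1% in LPS. Shares of 40% or more were found in 19 control and 15 LPS cells of cluster 9 and in no cell of the other numbered clusters. The sarcomere-majority cells supplied 60.4% of cluster 9's mitochondrial UMIs in control and 58.4% in LPS, but 13.9% and 12.2% of its nuclear-encoded UMIs.

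Cluster 9 cells were also shallow. They held a median of 5675 UMIs (range 3706 to 18283) in control and 3957 (2821 to 11516) in LPS, against 7526 and 5269 in cluster 3, and the lowest called cell of each library had 3682 and 2821. Genes detected per cell were 1793 and 1436 in cluster 9. They were 1267 and 932.5 in sarcomere-majority cells, 2032 and 1667 in fibroblast-majority cells, 2166 and 1709 in cluster 3 and 2823 and 2373 in cluster 0. The difference between sarcomere-majority cells and cluster 3 lay in RNA of both compartments. Their median mitochondrial UMIs per cell were 2871 and 1931, above the 1392.5 and 925 of cluster 3. Their nuclear-encoded UMIs were 2177 and 1453.5, below the 6079.5 and 4313 of cluster 3. Once cells were thinned to 1000 nuclear-encoded UMIs the order of genes per cell turned, with 677 and 676 in sarcomere-majority cells, after 6 control and 3 LPS cells too shallow had been left out, and 605 and 601 in cluster 3. Ribosomal protein genes took 13.9% and 10.8% of nuclear-encoded UMIs in the median sarcomere-majority cell and 21.6% and 21.4% in cluster 3.

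Within the sarcomere-majority cells the nuclear-encoded UMIs were fewer at higher mitochondrial share, which is in part arithmetic because the share is of the same total. Control cells at 25 to 50% (8 cells), 50 to 70% (5 cells) and 70 to 100% (8 cells) had medians of 3401, 2177 and 976.5 nuclear-encoded UMIs. The LPS cells of these bands (5, 9 and 4 cells) had 2247, 1372 and 848. Filament genes kept a similar share of the nuclear-encoded UMIs in the 3 bands, with 2.59, 3.03 and 2.31% in control and 2.87, 3.13 and 2.85% in LPS. These are close to the 2.62% and 2.63% of cluster 3. Filament genes helped to set the division, so a similar share across its bands is in part a result of that choice. The part of cell damage in the high mitochondrial share was not tested.

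**Figure D2:**
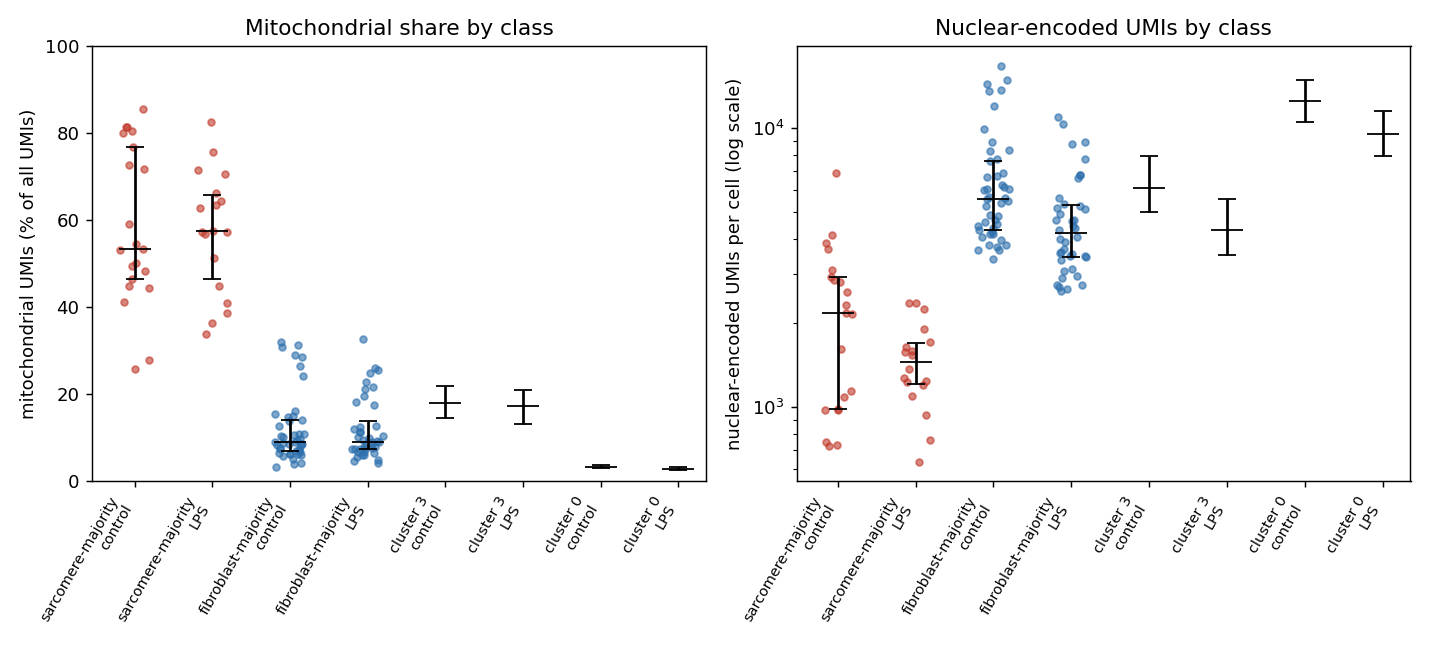
Mitochondrial percent of UMIs (left) and nuclear-encoded UMIs per cell on a log axis (right) for sarcomere-majority and fibroblast-majority cells of cluster 9 and for clusters 3 and 0, by library. Points are single cells of cluster 9 and bars are medians and quartiles; sarcomere-majority cells lie at medians of 53.3% and 57.4% mitochondrial UMIs and 2177 and 1453.5 nuclear-encoded UMIs.

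The protein-coding mitochondrial transcripts, 13 in all, were counted per 1000000 of all UMIs (CPM). Their sum was 226952 CPM in control and 220973 in LPS cells of cluster 9, against 170256 and 160386 in cluster 3. The cytochrome c oxidase subunit Mt-co1 had 12724 UMIs (28278 CPM) in control and 8833 (31587) in LPS cluster 9 cells, and its ratio to cluster 3 was 1.04 (1.02 to 1.06) and 1.08 (1.05 to 1.10). The complex I subunit Mt-nd4 had 3284 UMIs (7298 CPM) and 1810 (6472), with ratios of 1.19 (1.14 to 1.23) and 1.28 (1.22 to 1.35). Taken over all its cells, cluster 9 thus exceeded cluster 3 by less than 1.5-fold for both genes. In the sarcomere-majority cells alone, Mt-co1 was 2.78 and 2.95 times and Mt-nd4 3.13 and 3.62 times the level of cluster 3. Mt-atp6, a subunit of the ATP synthase proton channel, took 26.2% and 25.6% of cluster 9's mitochondrial UMIs, and stood at 1.44 and 1.51 times cluster 3 over all of cluster 9 and at 3.59 and 3.99 times in the sarcomere-majority cells. A few genes had too few UMIs for such a statement. Mt-nd6, the complex I subunit coded on the other strand, had 34 and 26 UMIs in all of cluster 9 (1.24 and 1.16 times cluster 3) and 7 and 6 in sarcomere-majority cells (1.04 and 1.20 times). Mt-nd4l had 6 and 4 UMIs in cluster 9, 0.42 (0.15 to 0.93) and 0.47 (0.13 to 1.22) times cluster 3, and Mt-atp8 had 27 and 10. The fibroblast-majority cells also stood above cluster 0, by 3.94- and 4.99-fold for Mt-co1 and by 4.06- and 4.99-fold for Mt-nd4.

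**Figure D3:**
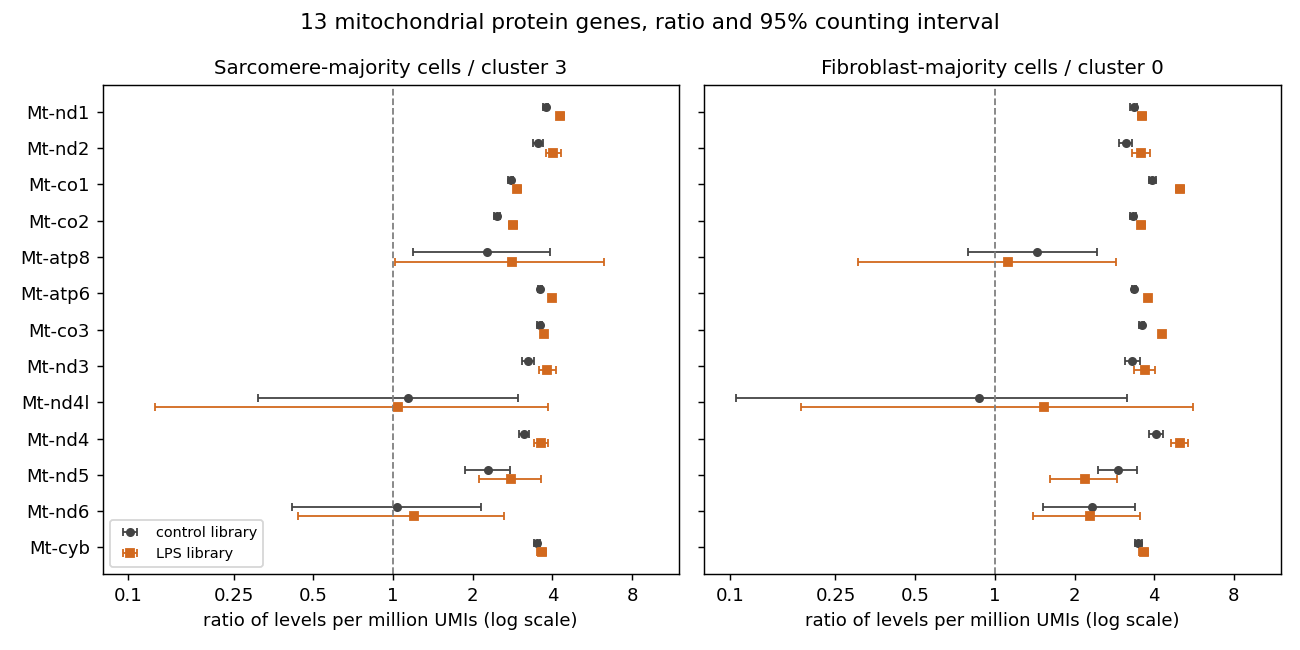
Ratio of the level (UMIs per 1000000 of all UMIs, log axis) of each mitochondrial protein gene in sarcomere-majority cells to cluster 3 and in fibroblast-majority cells to cluster 0, for the control and LPS libraries, with exact 95% counting intervals. The genes with narrow intervals lie above 2-fold in both comparisons, Mt-nd4 at 3.13 and 3.62 against cluster 3, and the wide intervals are those of Mt-atp8, Mt-nd4l and Mt-nd6.

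All further levels are per 1000000 nuclear-encoded UMIs of the class (also written CPM), so that the mitochondrial share does not enter them. Gene entries named AC134224 took 7.32% and 7.58% of these UMIs in cluster 9 and 4.11% and 4.64% in cluster 3. In sarcomere-majority cells they took 4.69% in control and 8.14% in LPS. Without these entries the median log2 ratio of cluster 9 to cluster 3 moved from 0.03 and 0.08 to 0.08 and 0.13. The thick filament genes, which helped to set the division, lay mostly in the sarcomere-majority cells. Myh6 had 131 UMIs (376.6 CPM) in control and 78 (358.0) in LPS cells. Of these, 106 (2186 CPM) and 64 (2401) lay in sarcomere-majority and 25 (83.5) and 14 (73.2) in fibroblast-majority cells, while cluster 3 had 974.9 and 1001 and cluster 0 15.5 and 12.1. Mybpc3 had 87 UMIs (250.1 CPM) and 59 (270.8) in cluster 9, with 1402 and 1763 CPM in sarcomere-majority cells against 734.0 and 714.7 in cluster 3. Myh7, the β myosin heavy chain that predominates in the fetal rodent ventricle, had 325 UMIs (6702 CPM) and 157 (5890) in sarcomere-majority cells against 3961 and 4129 CPM in cluster 3. Myl2, the ventricular regulatory light chain, and Mybphl had 0 UMIs in both libraries of cluster 9, and 12 and 9 (Myl2) and 2 and 2 (Mybphl) in the far larger cluster 3.

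Other genes of the contractile cell lay on both sides of cluster 3 in the sarcomere-majority cells. Tnnt2, cardiac troponin T, had 192 UMIs (3959 CPM) in control and 139 (5215) in LPS, against 4865 and 5250 in cluster 3, a ratio of 0.81 (0.70 to 0.94) and 0.99 (0.84 to 1.17). Tnnc1, cardiac troponin C, stood at 1856 and 2251 CPM against 3077 and 3215. Atp2a2, the calcium pump of the sarcoplasmic reticulum, stood at 2784 and 2551 CPM against 1602 and 1645. Its inhibitor Pln went the other way, with 1608 and 1876 against 2554 and 2440. The Atp2a2 ratios were 1.74 (1.45 to 2.06) and 1.55 (1.20 to 1.97), and the Pln ratios 0.63 (0.50 to 0.79) and 0.77 (0.57 to 1.01). Gja1, the gap junction protein connexin 43, stood at 680.5 and 975.4 CPM against 615.3 and 578.3. Nppa, the atrial natriuretic peptide, had 152 UMIs (3134 CPM) in 15 of 21 control and 36 (1351) in 10 of 18 LPS cells, against 2473 and 2355 in cluster 3. One control cell gave 19.1% and 1 LPS cell 30.6% of these Nppa UMIs. The catecholamine synthesis genes had few UMIs in cluster 9, with 1 and 0 of Dbh and 3 and 1 of Ddc. Th and Pnmt had 0 in both libraries. In cluster 3 they were rare too, with Dbh in 2.75% and Ddc in 4.19% of control cells at 1000 UMIs per cell. A list of 15 catecholamine genes summed to 0.50 (0.33 to 0.71) and 0.51 (0.32 to 0.78) times cluster 3 in cluster 9. In sarcomere-majority cells the ratios were 0.59 (0.19 to 1.39) and 1.15 (0.42 to 2.51), which do not separate them from cluster 3.

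Of the 12 fibroblast markers, 10 could be compared between the fibroblast-majority cells and cluster 0, and 3 were past 2-fold higher and 0 lower, beside 2.3% and 0% over all genes. The list summed to 1.86 (1.82 to 1.89) and 1.76 (1.71 to 1.81) times cluster 0; these markers helped to set the division. Col1a1 had 3078 UMIs (10282 CPM) in control and 1445 (7558) in LPS cells, against 4569 and 3828 CPM in cluster 0 and 1901 and 1587 in cluster 3. In the sarcomere-majority cells it stood at 1959 and 1238, near cluster 3. Col3a1, the type III collagen chain, stood at 5448 and 3285 CPM against 2161 and 1528 in cluster 0. Postn, the matricellular protein periostin, had 812 UMIs (2713 CPM) and 554 (2898) against 999.6 and 961.2. Dcn differed less, with 4172 and 4153 CPM against 2863 and 3314. Vim, the intermediate filament vimentin, was lower at 1119 and 585.8 CPM against 2146 and 1211.

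For the comparison of cluster 9 with cluster 3, a gene was named higher or lower when its level differed at least 2-fold in both libraries, and 5559 genes had enough UMIs. Of these 388 (6.98%) were higher and 351 (6.31%) lower in cluster 9. The clusters were built from the same counts, so these numbers describe the clustering and are no test of it. Of the 388, 357 (92.0%) were also past 2-fold in the fibroblast-majority cells, 69 (17.8%) in the sarcomere-majority cells and 149 (38.4%) in cluster 0, each against cluster 3. Of the 351, 343 (97.7%) were so in fibroblast-majority cells, 5 (1.42%) in sarcomere-majority cells and 337 (96.0%) in cluster 0. Fibroblast-majority cells supplied 86.1% and 87.8% of the nuclear-encoded UMIs of cluster 9, and cluster 3 is the reference in each case, so a large overlap with them follows from the construction.

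Among the 10 highest genes, Enpp3, an ectonucleotide pyrophosphatase, had 39 UMIs (112.1 CPM) in control and 36 (165.3) in LPS, against 16.2 and 17.8 CPM in cluster 3, ratios of 6.93 and 9.27. C1r, a complement protease, was 5.82 and 6.35 times higher, from 258 and 195 UMIs. Mmp14, a membrane-bound matrix metalloproteinase, was 6.46 and 5.17 times higher, and Dcn 5.25 and 5.18 times. Tnfaip6, an inflammation-induced hyaluronan-binding protein, was 4.68 and 6.38 times higher and Lum, the proteoglycan lumican, 4.58 and 5.70 times. Aebp1, Ackr3, Rrbp1 and Scpep1 completed the 10 highest, at 4.58- to 5.90-fold over both libraries. In the sarcomere-majority cells C1r had 6 and 1 UMIs (123.7 and 37.5 CPM against 127.5 and 141.0 in cluster 3). Mmp14 had 2 and 0, and Dcn 40 and 17 (824.8 and 637.8 CPM against 706.2 and 718.2). Lum had 11 and 4 UMIs there and lay below cluster 3 in both libraries. Rrbp1 had 5 and 0 and lay below cluster 3 in LPS. Of the 12 fibroblast markers, all with enough UMIs, 10 were higher and 0 lower, with a median log2 ratio of 2.09 and 1.79 beside 0.03 and 0.08 over all genes compared.

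Among the 10 lowest genes, Myoz2, a Z-disc calcineurin-binding protein, had 7 UMIs (20.1 CPM) and 2 (9.18) in cluster 9 against 284.3 and 280.1 CPM in cluster 3. Cav3, the muscle caveolin, had 12 and 5 UMIs with ratios of 0.09 and 0.06. Tnnc1 had 118 and 74 UMIs with ratios of 0.11 in both, and Pln 104 and 63 with 0.12 in both. Ppp1r3a, the muscle glycogen-targeting subunit of protein phosphatase 1, had 0 UMIs in cluster 9 against 172 and 114 UMIs in cluster 3. Mlf1 had 1 and 0 UMIs, and Rab3b, Sh3bgr, LOC100361898 and LOC100912195 completed the list. Of the 8 thick filament genes 6 had enough UMIs and all 6 were lower, with a summed ratio of 0.25 (0.24 to 0.27) in control. Of 10 thin filament genes 9 had enough UMIs, 8 were lower and Tpm2 alone was higher (2.32- and 2.83-fold). In the Z-disc and M-band list, 11 of 13 compared were lower. Over all genes 6.31% were lower and 6.98% higher. Of 48 nuclear respiratory chain genes compared, 10 were lower and 0 higher, with a summed ratio of 0.56 in both libraries, although the sum of the 13 mitochondrial transcripts was higher in cluster 9 on its own scale.

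The sarcomere-majority cells were also compared with cluster 3 directly. With 21 and 18 cells only 189 genes, all abundant, reached 20 expected UMIs, of which 1 (0.529%) was higher and 7 (3.7%) lower in both libraries. Under the less strict filter used for all of cluster 9, which lets in more genes than these 189, 84 genes were higher and 10 lower. The higher gene was Myh6, with ratios of 2.24 (1.83 to 2.72) and 2.40 (1.84 to 3.07). The lower genes were mostly of ribosomal proteins, Rps20, Rps23, Rps4x, Rpl13 and Rpl32 among them. Of 59 ribosomal protein genes compared, 6 were lower and 0 higher, with a summed ratio of 0.65 in control and 0.52 in LPS. Over the 8 thick filament genes the summed ratio was 1.53 in both libraries, over the thin filament 0.85 and 1.01, over sarcoplasmic reticulum calcium handling 1.09 and 1.19 and over the nuclear respiratory chain 0.89 and 1.10. Filament genes helped to set the division, so their levels in the sarcomere-majority cells are a description. The median log2 ratio over the 189 genes was -0.32 and -0.39, to which each of these values can be set.

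The fibroblast-majority cells were compared with cluster 0 over 1132 genes, of which 26 (2.3%) were higher and 0 (0%) lower. Against cluster 1 in place of cluster 0, where the genes compared can differ, 50 were higher and 23 lower. Postn was 2.71 and 3.01 times higher, and Tnc, the matrix glycoprotein tenascin C, 2.49 and 2.83 times, from 256 and 172 UMIs. Pdgfrb, a platelet-derived growth factor receptor of fibroblasts and mural cells, was 2.44 and 2.93 times higher, and Lrp1, an endocytic receptor, 2.35 and 3.08 times. Hsp90b1, a chaperone of the endoplasmic reticulum, stood at 888.6 and 999.0 CPM against 330.7 and 346.4, ratios of 2.69 and 2.88. Emilin1, C1r, Hnrnph1, Snrnp70 and Cltc were among the 10 largest, and Col3a1, Fn1, Fbn1, Vcan, Mmp2 and Col6a2 among the others. Ribosomal protein genes summed to 0.68 and 0.71 of the level in cluster 0, with 0 of 67 compared past 2-fold. Thick filament genes, none with enough UMIs singly, summed to 116 UMIs (387.5 CPM) in control and 96 (502.1) in LPS, 3.00 and 4.31 times the level of cluster 0. One control cell held 51 of the 116 and 1 LPS cell 24 of the 96, and without them the ratios were 1.71 (1.32 to 2.18) and 3.39 (2.65 to 4.27), an alternative chosen after seeing the data. That control cell, with 73 filament and 91 fibroblast UMIs, lay close to the dividing line. Thick filament and fibroblast marker sums were both above cluster 0 in the fibroblast-majority cells, and the part of droplets holding 2 cells in this was not tested.

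**Figure D4:**
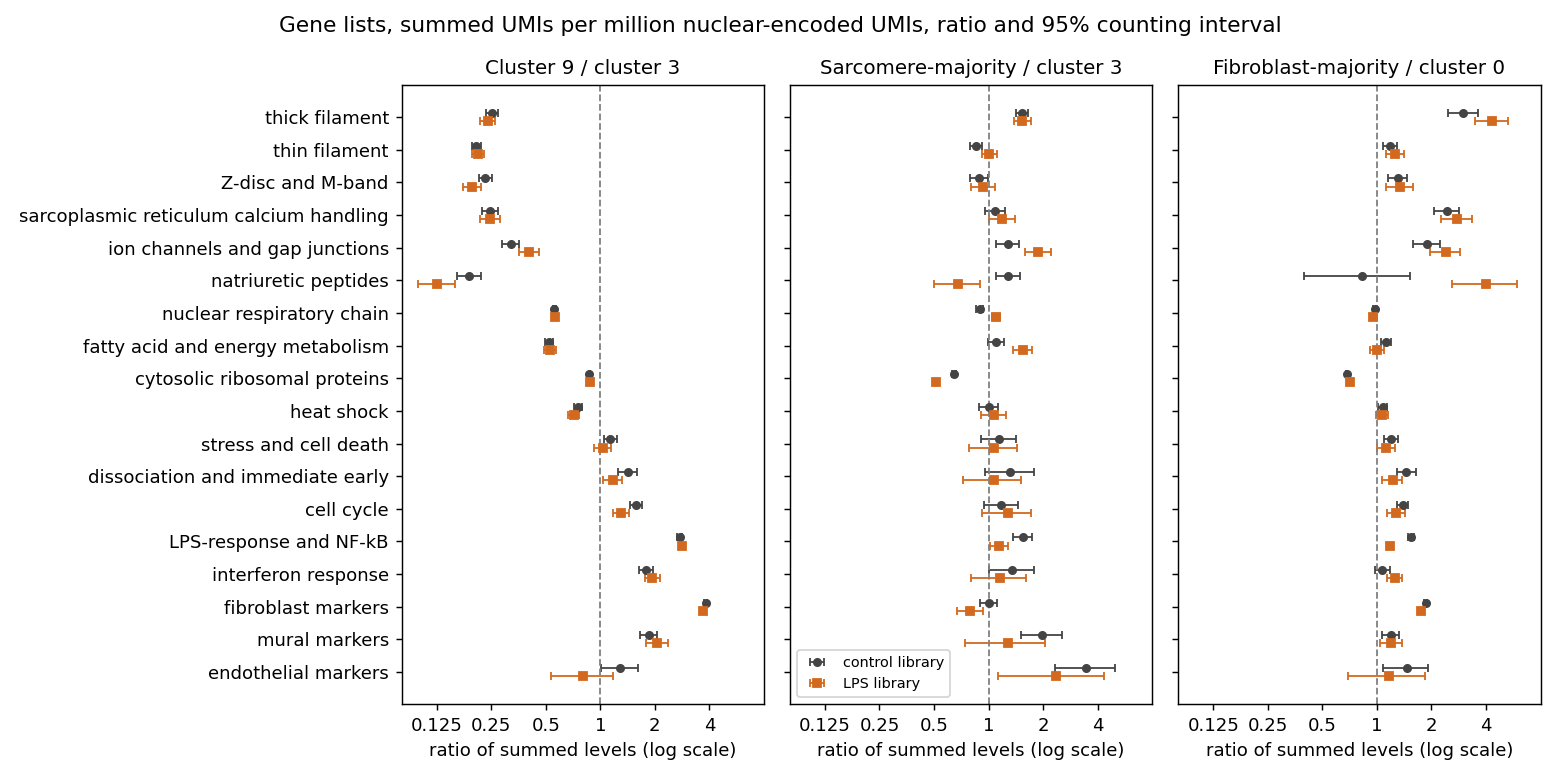
Summed level of each gene list in cluster 9 over cluster 3, in sarcomere-majority cells over cluster 3 and in fibroblast-majority cells over cluster 0 (log axis, control and LPS libraries marked separately, bars giving exact 95% counting intervals). Filament lists lie near 0.25-fold for all of cluster 9 and between 0.85- and 1.53-fold for the thick and thin filament of its sarcomere-majority cells, while fibroblast markers lie at 3.81- and 3.71-fold for all of cluster 9 and at 1.00- and 0.79-fold for its sarcomere-majority cells.

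Markers of other cell types were also summed. The 10 mural markers, led by Pdgfrb with 150 and 75 UMIs, summed to 409 and 223 UMIs in cluster 9 and to 1.85 (1.66 to 2.05) and 2.06 (1.78 to 2.36) times the level of cluster 3, with 1 of 5 compared past 2-fold. In sarcomere-majority cells their ratios were 1.98 (1.51 to 2.54) and 1.28 (0.75 to 2.06). In control sarcomere-majority cells the 9 endothelial markers summed to 30 UMIs, led by Cdh5 with 6, and to 3.46 times (2.32 to 4.97) the level of cluster 3. In LPS cells they summed to 10 UMIs and 2.36 times (1.12 to 4.36). The 13 macrophage markers summed to 13 and 2 UMIs there, 5.32 (2.80 to 9.24) and 2.90 (0.35 to 10.7) times cluster 3, with the complement genes C1qa, C1qb and C1qc and the receptor Csf1r at 0 in all of cluster 9, and 5 of the 8 Tyrobp UMIs of the control cells came from 1 cell. Red blood cell markers gave 9 and 3 UMIs over cluster 9. Stress and cell death genes, a list of 26, summed to 1731 and 1630 CPM in cluster 9 against 1521 and 1581 in cluster 3, with 0 higher and 1 lower of 20 compared, beside 6.98% higher and 6.31% lower over all genes. Immediate early genes had 0 of 9 past 2-fold and summed to 1.42 (1.26 to 1.59) and 1.17 (1.03 to 1.32) times cluster 3. Heat shock genes had 0 higher and 5 lower of 13. Of 28 LPS-response and NF-κB genes compared, 12 were higher and 0 lower, with summed ratios of 2.74 in control and 2.84 in LPS. Set against cluster 0, the fibroblast-majority cells had 0 of 11 genes of this list past 2-fold. Their summed ratios to cluster 0 were 1.54 in control and 1.19 in LPS. Of 11 cell cycle genes compared with cluster 3, 4 were higher and 0 lower, with summed ratios of 1.58 and 1.30. In cells with at most 5 UMIs of the macrophage, endothelial and mural markers together, 271 genes were higher and 145 lower than in cluster 3. These stand in place of 388 and 351, and this set also holds fewer cells, which changes how many genes can be compared. Of the Pdgfrb UMIs of cluster 9, 147 and 73 lay in fibroblast-majority cells, so this filter can also change the mix of the 2 parts.

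In cluster 9, LPS cells held chemokine and NF-κB target genes at higher levels than control cells. Between the 66 control and 58 LPS cells, 1663 genes had at least 50 UMIs. Of these 45 (2.71%) were at least 2-fold higher and 46 (2.77%) at least 2-fold lower in LPS. Both counts moved strongly with the minimum of UMIs and with the fold, as given in the last section. Ccl2, a monocyte chemoattractant, went from 389 UMIs (1118 CPM) in 46 of 66 cells to 1797 UMIs (8249 CPM) in 57 of 58 cells, a ratio of 7.38 (6.61 to 8.25). Over the same contrast it was 10.6-fold higher in cluster 3 and 16.8-fold in cluster 0. Cx3cl1, the membrane chemokine fractalkine, went from 5 UMIs in 4 cells to 72 in 33 cells (14.4 to 330.5 CPM), a ratio of 23.0 (9.41 to 73.0), against 4.19 in cluster 3 and 27.3 in cluster 0. Cxcl1, a neutrophil chemoattractant, went from 101 to 498 UMIs, a ratio of 7.87 (6.35 to 9.85), against 14.2 and 13.6. In cluster 3, 139 of 8452 genes (1.64%) were higher and 144 (1.7%) lower, and in cluster 0, 418 of 12234 (3.42%) and 1108 (9.06%), counts that depend on the far larger numbers of cells. The differences between clusters in these ratios were not tested, since each rests on 1 library per condition.

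Of the other genes among the 10 highest, Icam1, a leukocyte adhesion molecule, went from 7 to 67 UMIs (15.3-fold) and Tnfaip6 from 18 to 161 (14.3-fold). Cxcl6 went from 54 to 378 UMIs (11.2-fold) and Cyp7b1, an oxysterol hydroxylase, from 6 to 45 (11.98-fold). Of the 25 interferon-response genes 2 were compared and 1 was higher, and the list summed to 1.59-fold (1.40 to 1.81). Isg15, an interferon-induced ubiquitin-like protein, went from 7 to 48 (10.9-fold) and Jak2, a cytokine receptor kinase, from 17 to 83 (7.80-fold). Cxcl3 went from 32 to 144 (7.19-fold). Outside the 10 highest, Nfkbia, the NF-κB inhibitor IκBα, went from 38 to 153 (6.43-fold). Of the 56 entries of the LPS-response and NF-κB list, 20 had enough UMIs and 17 were higher and 0 lower, beside 2.71% and 2.77% over all genes, with a median log2 ratio of 2.31 beside -0.02. The list summed from 10177 to 31067 CPM, 3.05-fold (2.93 to 3.18), against 2.95-fold in cluster 3 and 4.02-fold in cluster 0. In control cells its most abundant member was the secreted phospholipase Pla2g2a with 1111 UMIs, of which 1 cell held 31.0%.

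Among the genes lower in LPS, Lrrc17, a secreted leucine-rich repeat protein, went from 68 to 4 UMIs, a ratio of 0.09, with 0.09 in cluster 3 and 0.16 in cluster 0. Igf1, insulin-like growth factor 1, went from 60 to 5 UMIs (0.13) and Ptn, the growth factor pleiotrophin, from 154 to 17 (0.18). Cd248, the mesenchymal surface protein endosialin, went from 104 to 18 (0.28) and Apoe, apolipoprotein E, from 330 to 65 (0.31). Eln, elastin, went from 47 to 8 UMIs (0.27, 0.11 to 0.58), where cluster 3 had 0.89 and cluster 0 had 0.74. Gpx1, a glutathione peroxidase, went from 47 to 9 (0.31, 0.13 to 0.63), with 8 of the 47 in 1 cell. For Gpx1 cluster 3 had 0.92, cluster 0 had 0.73 and cluster 1 had 0.78. Tpst1, Igfbp4 and Spon2 completed the 10 lowest. These 10 were chosen by their ratio in cluster 9, so ratios nearer 1 in other clusters can follow in part from that choice. Of the 12 fibroblast markers 11 were compared, 2 were lower (Dpt and Col1a2) and 0 higher, beside 2.77% and 2.71% over all genes, with a summed ratio of 0.88 (0.85 to 0.91).

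Contractile and respiratory genes gave no count past 2-fold between LPS and control cells of cluster 9, beside 2.71% higher and 2.77% lower over all genes compared. Of the thick filament list 4 genes were compared, 0 past 2-fold, with a summed ratio of 0.97 (0.86 to 1.09). The thin filament had 0 of 7 and 1.05 (0.95 to 1.15), the nuclear respiratory chain 0 of 43 and 1.03 (0.99 to 1.06), and ribosomal proteins 0 of 67 and 0.98 (0.97 to 1.00). In the sarcomere-majority cells alone the thick filament stood at 1.03 (0.90 to 1.17), the thin filament at 1.22 (1.08 to 1.38) and the nuclear respiratory chain at 1.25 (1.17 to 1.35), with 0 genes past 2-fold. Ribosomal proteins stood at 0.78 (0.75 to 0.81) there, with 3 of 57 lower beside 3.56% over all genes compared in these cells. The 13 mitochondrial transcripts summed to 0.97 (0.96 to 0.98) of the control level, against 0.94 in cluster 3 and 0.88 in cluster 0. Among them, Mt-co1 was at 1.12 and Mt-nd2 at 0.81 of control.

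Fibroblast-majority cells held 86.1% and 87.8% of the nuclear-encoded UMIs of cluster 9, and with them most UMIs of the genes that differed with LPS. Ccl2 went from 359 to 1726 UMIs there and from 30 to 71 in sarcomere-majority cells, where 1 control cell held 18 of the 30. Cx3cl1 went from 2 to 61 and from 3 to 11, and Icam1 from 3 to 63 and from 4 to 4. The LPS-response list summed to 3.09-fold in fibroblast-majority and 2.18-fold (1.85 to 2.56) in sarcomere-majority cells. In the latter, fibroblast markers stood at 0.72 (0.59 to 0.87) and mural markers at 0.51 (0.28 to 0.88) of control, and endothelial markers over all of cluster 9 at 0.56 (0.35 to 0.87). In cells with at most 5 UMIs of the macrophage, endothelial and mural markers together, 31 genes were higher and 18 lower in LPS, in place of 45 and 46 over all of cluster 9. That set holds fewer cells, which changes how many genes can be compared. In sarcomere-majority cells 225 genes had enough UMIs, of which 3 (1.33%) were higher, namely Ccl2 (4.31-fold, 2.77 to 6.84), Pla2g2a (2.14-fold) and Ldhb (2.39-fold), and 8 (3.56%) were lower, Nppa (0.43, 0.29 to 0.62) among them. Ldhb, a lactate dehydrogenase chain, had 32 and 42 UMIs and stood at 0.97 of control in cluster 3, where Nppa stood at 0.95. Pla2g2a had 23 and 27 UMIs in sarcomere-majority cells, with 8 of the 23 in 1 control cell. In fibroblast-majority cells Nppa went the other way, from 9 to 23 UMIs, 8 of them in 1 LPS cell. Ldhb also went the other way there, from 30 to 8 UMIs. The share of sarcomere-majority cells with a Ccl2 UMI was 6 of 21 in control and 17 of 18 in LPS, and 14.3% and 66.7% at 1000 UMIs per cell. At that depth it was 15.0% and 80.2% in cluster 3 and 30.8% and 99.6% in cluster 0. Nuclear-encoded UMIs were not matched by this thinning, and on that scale Ccl2 stood at 618.6 and 2664 CPM in sarcomere-majority cells and at 236.7 and 2512 CPM in cluster 3. The part of free Ccl2 RNA in it was not tested. In fibroblast-majority cells 1383 genes had enough UMIs, with 44 (3.18%) higher and 47 (3.4%) lower.

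**Figure D5:**
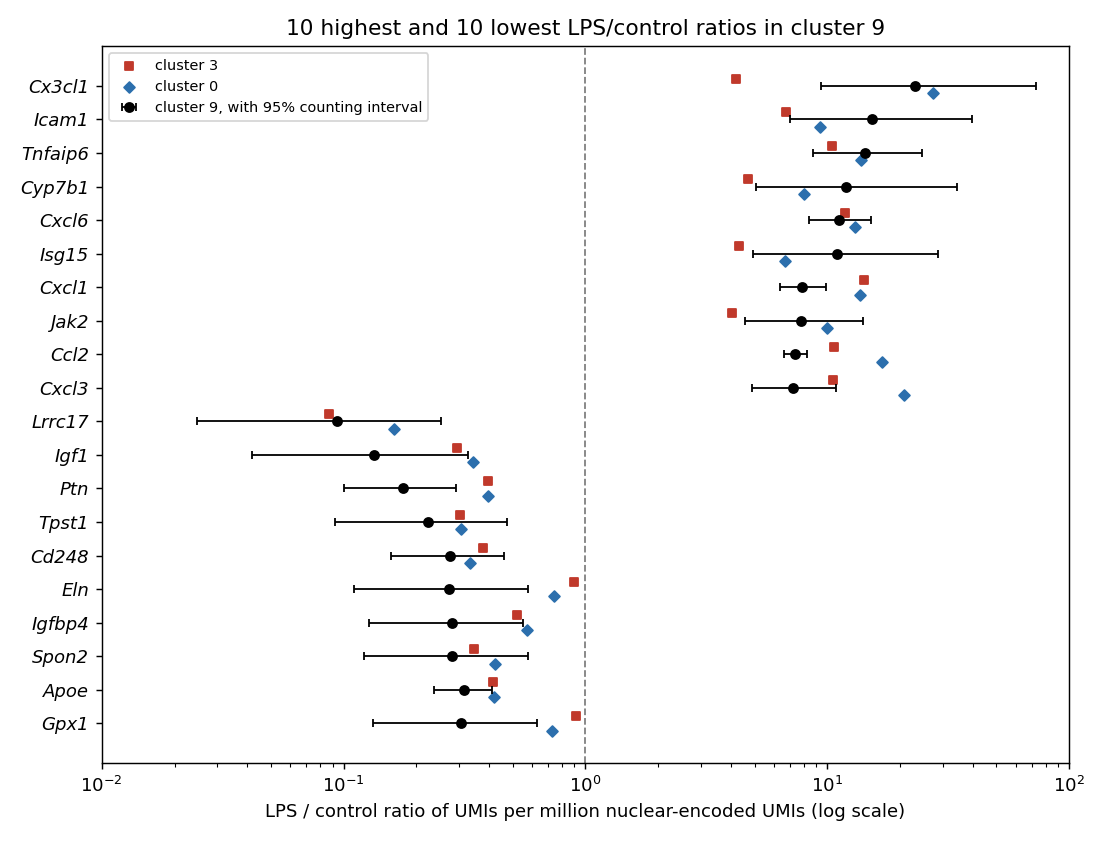
Ratio of the level in LPS to that in control cells (log axis) for the 10 highest and 10 lowest genes of cluster 9, as black points with exact 95% counting intervals, and the same ratio in cluster 3 (squares) and cluster 0 (diamonds). Cx3cl1 is the highest at 23.0 and Lrrc17 the lowest at 0.09, and Eln and Gpx1 lie near 1 in cluster 3. The genes were chosen by their ratio in cluster 9 and not by that in the other clusters.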

How the data were processed

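Trypsin-digested, Percoll-enriched neonatal rat cardiac cells were profiled in 2 libraries, 1 per condition. The authors deposited raw UMI counts per gene (25399 Ensembl identifiers with symbols) and cell barcode, with no normalization, and a table of each cell's cluster. The submitters' processing notes name Cell Ranger 2.2.0 and Seurat 2.3.4, and the study's methods name RunCCA for batch correction and, for clustering, FindClusters (resolution 0.5). The genome build was not given in the sources used here. The libraries held 152624585 (control) and 127580475 (LPS) UMIs. They shared 194 barcodes, none between both sets of cluster 9 cells, although 2 cluster 9 barcodes were found in the other library. The 2 control and 8 LPS cells without a cluster were left out of the classes. No further cell filter was applied and no doublet caller was run; leaving out the 8% of cells with most UMIs was an alternative.

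UMIs were summed over the cells of a class in Python 3.11.15 (numpy 2.4.6, scipy 1.17.1, pandas 2.3.3, matplotlib 3.10.9) and divided by the class's nuclear-encoded UMIs, or by all UMIs for mitochondrial genes. Intervals at 95% were exact Poisson for levels, exact conditional binomial for ratios and Clopper-Pearson for shares. Comparisons of cluster 9 with cluster 3 took genes with at least 50 UMIs over both classes in each library and at least 5 UMIs expected in cluster 9 at the higher level. Those of the divided cells needed 20 expected UMIs, and those of LPS with control 50 UMIs over both libraries. A gene was past 2-fold when the log2 ratio, with 0.5 UMI added to each sum, was so in every library compared. Named genes were the 4 given markers, the 13 mitochondrial genes, the most abundant and the absent defining members of each gene list, and the 10 genes in each direction with the largest changes past 2-fold. Other genes named were chosen after their values were seen. The members, the comparisons and the gene lists were chosen with earlier results of these data known. A count of 0 allows up to 3 UMIs. The procedure was run on simulated data in which each summed count was drawn as a Poisson value, as the intervals assume. Such data hold no spread between cells, so they do not test how that spread affects the intervals. Alternatives were other gene filters and folds, other scales, thinning, and cell filters. Ttn, Malat1 and Tcap were not analysed here.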

Additional observations from a re-analysis of the deposited data

Results flagged for a closer look

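Cells that the deposited annotation put in no cluster entered no comparison. The 2 such control cells had a median mitochondrial share of 87.4% and the 8 such LPS cells one of 88.0%, above the highest cluster 9 cells (85.5% in control and 82.6% in LPS). They were singled out because they lay outside the clusters compared, and they held 4 and 31 UMIs of the thick filament genes.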

How the results depend on the processing

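No paired analysis was possible because a single library was made per condition. In 24 settings, 826 values of 78 results were computed, and of the counts, medians and shares 65 stayed close to the value reported and 41 moved. For cluster 9 against cluster 3, the 388 higher and 351 lower genes became 836 and 652 at 1.5-fold, 111 and 148 at 3-fold, 113 and 118 after thinning to 1000 nuclear-encoded UMIs and 84 and 10 in sarcomere-majority cells alone. The higher genes became 238 at a minimum of 100 UMIs and 226 with expected UMIs summed over both clusters. The lower genes became 145 in cells with at most 5 UMIs of other cell types and 232 as the mean of the cells' own levels. For LPS, the 45 higher and 46 lower genes became 193 and 186 at a minimum of 20 UMIs, 15 and 10 at 100, 1614 and 1555 at 1, 131 and 149 at 1.5-fold, 27 and 13 at 3-fold, and 3 and 8 in sarcomere-majority cells; in cells with at most 5 UMIs of other cell types 18 were lower. Fibroblast-majority cells against cluster 1 in place of cluster 0 gave 50 higher and 23 lower genes. At the reported settings 388 and 351 were 6.98% and 6.31% of 5559 genes, and 45 and 46 were 2.71% and 2.77% of 1663. Other UMI minima and other sets of cells also change how many genes are compared. The counts under them are therefore not shares of a fixed set of genes. The median mitochondrial percent was 53.3 and 57.4 in sarcomere-majority and 9.03 and 9.12 in fibroblast-majority cells, and the median UMIs were 4895 and 3456 in the former and 4867 in LPS cells of the latter. The share of cells with Myh6 was 34.8% and 31.5% at 3000 UMIs and 40.9% and 41.4% without thinning; that with Col1a1 was 100% in control under both and 90.7% in LPS at 3000. In sarcomere-majority cells alone 7 values changed sign. The log2 ratio of LPS to control became 0.13 for Tpst1. Against cluster 3, it became -1.33 for C1r, -0.77 for Mmp14, -0.13 for Dcn and -2.04 for Rrbp1 in LPS, and -0.75 in control and -1.15 in LPS for Lum. These alternatives leave fewer cells and genes. The median log2 ratio of all genes moved with the scale from 0.03 and 0.08 to -0.07 and -0.02 over all UMIs. In the sarcomere-majority cells, with 21 and 18 cells of low depth, 189 genes could be compared.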
